A study of Mus musculus with 32 samples.

Results

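The genes described here are 41 genes of the lysosome, the acidic compartment in which cells break down what they take up. They were taken by a list of gene symbols from 24421 genes in the count tables. The list uses no measured value as a criterion, but it was drawn up with earlier results of these data known. They fall into 9 proteases of the cathepsin and legumain class, 7 glycosidases, 7 lipid hydrolases, activators and other lumenal proteins, 7 membrane proteins, and 11 subunits or accessory proteins of the vacuolar proton pump, the V-ATPase. All 41 had reads in every library, and all 41 were among the 13453 genes that passed the filter on low counts.

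The RNA was sequenced in bulk from sorted macrophages of epididymal fat, taken from C57BL/6J mice. The mice lacked A20 (gene Tnfaip3, an inhibitor of NF-kappaB signalling) in myeloid cells (KO) or were wild-type (WT), and ate for 12 weeks either a high fat diet (HFD) or standard diet (SD). From each, CD11c+ macrophages (CD11c high, CD206 low) and CD206+ macrophages (CD206 high, CD11c low) were sorted, which gives 8 groups of 4 libraries, 32 in all: KO HFD, WT HFD, KO SD and WT SD, each in both populations. The sources used here name no age, sex or Cre driver, and a myeloid deletion reaches other myeloid cells besides these macrophages. Whether each library of a group is a mouse of its own is not stated, so the p-values reflect the spread between libraries, which may be technical.

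Lysosomal hydrolases are made in the endoplasmic reticulum, carried to the lysosome mostly by mannose 6-phosphate receptors, and work at the low pH that the V-ATPase maintains. In adipose tissue, macrophages take up dead adipocytes and the lipid they release, and degrade both in lysosomes. Many lysosomal genes share a promoter element, called CLEAR, that is bound by TFEB, TFE3 and MITF, transcription factors that the growth regulator mTORC1 holds in the cytoplasm when nutrients are plentiful.

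RefSeq promoter windows (assembly GRCm38.p6, 250 bases before to 50 after a start site) were matched to 35 of the 41 genes by symbol. The core of the CLEAR element, CACGTG, was searched for together with the longer palindrome TCACGTGA, which contains it; both read the same on either strand. CACGTG was present in a window of 12 of the 35 genes (34.29%), against 2187 of 27025 mouse genes with a window (8.093%) and 1183 of the 10243 tested genes with a window (11.55%). TCACGTGA was present in 6 of the 35 genes (17.14%), against 304 of the 27025 (1.125%) and 218 of the 10243 tested genes (2.128%). Of the other lysosomal genes and regulators described below, 87 had a window. Among these, CACGTG was present in 21 (24.14%) and TCACGTGA in 9 (10.34%). All 6 windows with TCACGTGA are shown because they carry the motif of the pathway's best known regulators. They are ordered by the size of their genes' log2 fold change with diet in WT CD11c+ macrophages. The motif is in capitals. They lie at chr7:142387778-142388077 (minus strand) for Ctsd, chr16:44139210-44139509 (minus) for Atp6v1a, chrX:134600956-134601255 (minus) for Gla, chr2:164833523-164833822 (plus) for Ctsa, chr8:3500269-3500568 (plus) for Mcoln1 and chr8:105566015-105566314 (minus) for Atp6v0d1.
Ctsd: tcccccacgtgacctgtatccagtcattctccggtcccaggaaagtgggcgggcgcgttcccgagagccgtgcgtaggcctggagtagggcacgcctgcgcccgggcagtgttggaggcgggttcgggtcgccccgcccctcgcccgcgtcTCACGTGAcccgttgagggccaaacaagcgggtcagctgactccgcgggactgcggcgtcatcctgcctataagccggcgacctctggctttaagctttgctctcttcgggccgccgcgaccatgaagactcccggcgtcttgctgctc
Atp6v1a: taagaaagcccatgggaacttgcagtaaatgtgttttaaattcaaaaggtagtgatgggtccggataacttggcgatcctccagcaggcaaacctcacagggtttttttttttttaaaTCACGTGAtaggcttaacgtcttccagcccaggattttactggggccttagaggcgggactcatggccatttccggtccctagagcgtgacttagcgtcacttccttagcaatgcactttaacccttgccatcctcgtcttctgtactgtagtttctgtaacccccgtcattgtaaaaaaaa
Gla: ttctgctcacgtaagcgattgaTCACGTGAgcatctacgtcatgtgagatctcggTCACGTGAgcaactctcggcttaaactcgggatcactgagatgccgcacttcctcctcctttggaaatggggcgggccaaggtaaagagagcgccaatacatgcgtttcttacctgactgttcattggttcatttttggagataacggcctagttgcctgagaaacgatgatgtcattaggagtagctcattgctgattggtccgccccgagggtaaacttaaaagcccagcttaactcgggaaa
Ctsa: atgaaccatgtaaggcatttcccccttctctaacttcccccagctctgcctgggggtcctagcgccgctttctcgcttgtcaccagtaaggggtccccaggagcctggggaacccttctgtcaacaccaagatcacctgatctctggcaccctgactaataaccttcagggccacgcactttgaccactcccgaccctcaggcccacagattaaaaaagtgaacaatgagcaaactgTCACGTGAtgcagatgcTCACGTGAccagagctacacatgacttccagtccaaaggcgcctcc
Mcoln1: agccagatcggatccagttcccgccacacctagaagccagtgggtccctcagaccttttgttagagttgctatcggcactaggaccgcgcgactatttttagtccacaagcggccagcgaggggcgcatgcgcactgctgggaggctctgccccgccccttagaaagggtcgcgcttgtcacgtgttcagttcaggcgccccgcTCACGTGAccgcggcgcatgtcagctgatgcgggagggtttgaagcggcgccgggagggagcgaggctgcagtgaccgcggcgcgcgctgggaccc
Atp6v0d1: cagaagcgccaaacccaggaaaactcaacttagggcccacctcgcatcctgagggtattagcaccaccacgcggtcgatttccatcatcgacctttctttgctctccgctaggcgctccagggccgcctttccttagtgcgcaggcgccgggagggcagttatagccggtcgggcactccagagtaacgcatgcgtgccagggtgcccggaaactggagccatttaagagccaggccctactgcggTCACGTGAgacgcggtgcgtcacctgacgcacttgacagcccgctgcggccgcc
Gla and Ctsa held 2 copies and the other 4 genes 1 copy. In HFD against SD WT CD11c+ macrophages, the log2 fold changes of these genes were 1.73 for Ctsd, 1.68 for Atp6v1a, 1.30 for Gla, 0.94 for Ctsa, 0.80 for Mcoln1 and 0.02 for Atp6v0d1. A match in these letters is a description and not a bound site.

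Libraries held 17619638 to 23832924 reads counted to genes and 14314 to 15689 genes with at least 1 read. Tnfaip3 was at 167 to 474 CPM (read counts scaled for library size) in the 16 KO libraries and at 486 to 1647 CPM in the 16 WT libraries, with no overlap. Itgax, which encodes CD11c, had group means of 196 to 320.3 CPM for CD11c+ cells and 3.41 to 34.4 CPM for CD206+ cells, the highest of the CD206+ means being that of WT HFD. Mrc1, which encodes CD206, had group means of 453 to 633 CPM for CD11c+ cells and 1458 to 1893 CPM for CD206+ cells. Macrophage markers summed to 16537 to 35194 CPM, and were present in every library. In a principal component analysis of all tested genes, the third component (12% of the variance) set the 8 WT SD libraries (scores -59 to -38.7) apart from the other 24 (0.1 to 40.4). In bulk RNA, fewer cells of a type and less RNA per cell cannot be told apart.

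The 41 genes together made up a share of the RNA that averaged 6.43% in WT HFD and 3.40% in WT SD CD11c+ macrophages, the extremes of the 8 groups. Their summed level averaged 51218 ± 3761 CPM in KO HFD, 63827 ± 3368 CPM in WT HFD, 46812.5 ± 5922 CPM in KO SD and 36767 ± 5786 CPM in WT SD CD11c+ macrophages (SD, n = 4 each). In CD206+ macrophages it averaged 41666 ± 3982 CPM in KO HFD, 45131 ± 2030 CPM in WT HFD, 38270.1 ± 2094 CPM in KO SD and 34106 ± 3060 CPM in WT SD (SD, n = 4 each). In both populations WT HFD was the highest group and WT SD the lowest. Ctsb, Psap and Ctsd weighed most in this sum, at 22.4%, 17.9% and 12.9% of it in WT HFD CD11c+ macrophages. Not all classes followed the order of the sum. Summed glycosidases were lowest in KO SD in both populations, and summed membrane proteins were lowest in KO SD among the CD206+ groups. The highest of the 8 group means lay in WT HFD CD11c+ macrophages for 24 of the 41 genes. The lowest lay in WT SD CD11c+ macrophages for 16 genes and in WT SD CD206+ macrophages for 13.

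**Figure D1:**
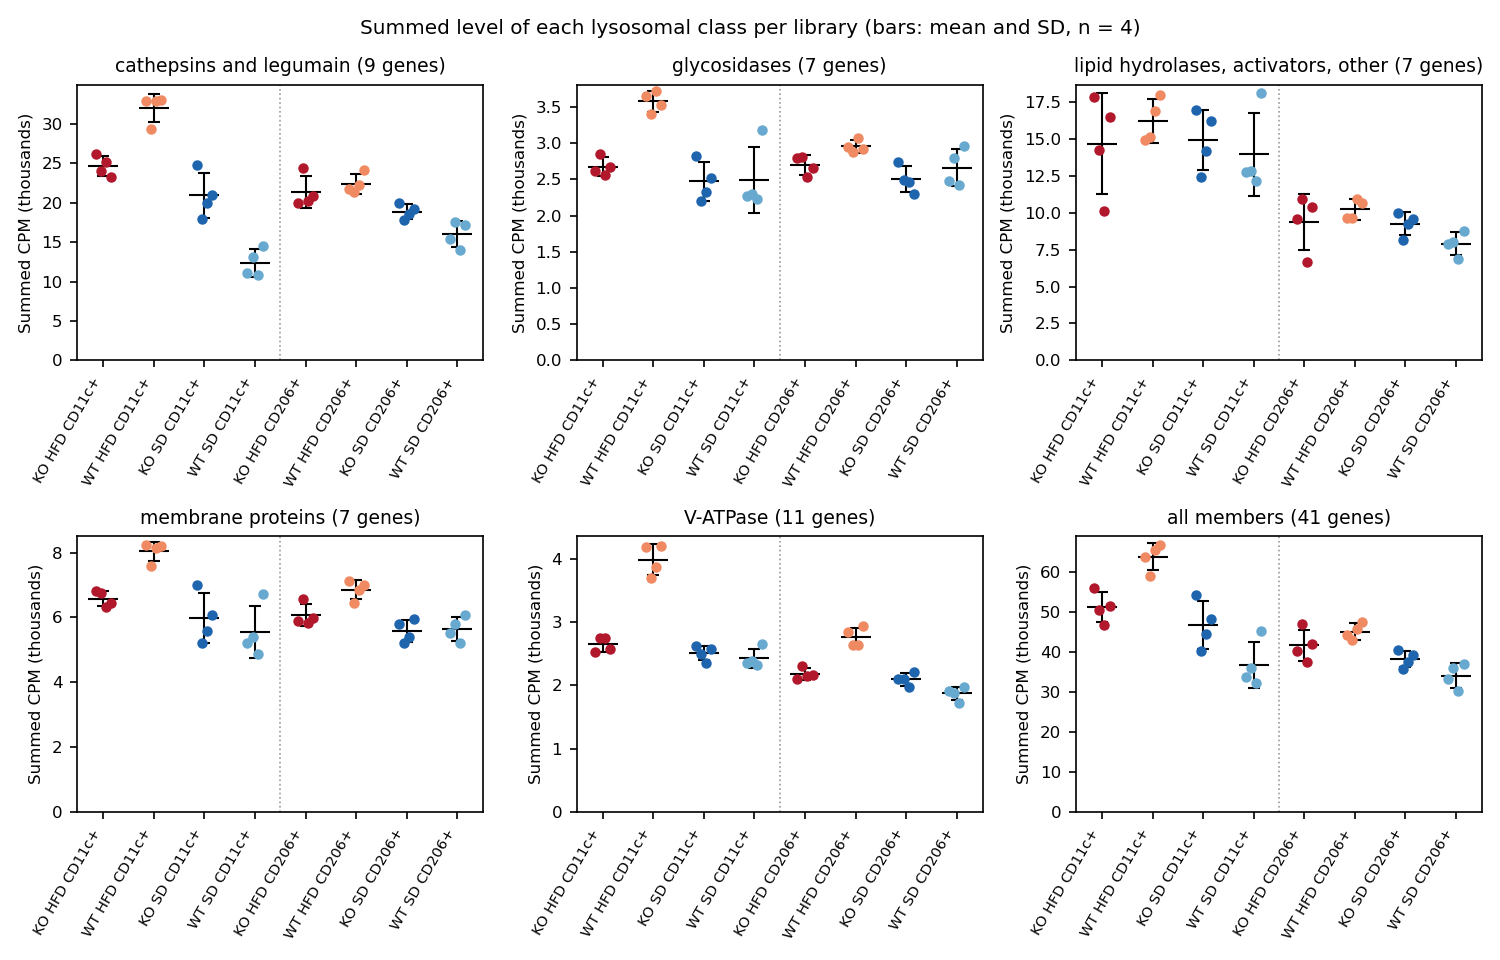
Summed CPM of the 5 classes and of all 41 genes in each library, with KO HFD, WT HFD, KO SD and WT SD from left to right in CD11c+ and then CD206+ macrophages; points are libraries, bars mean and SD (n = 4). The V-ATPase sum averaged 3983 CPM in WT HFD CD11c+ macrophages and 2648 CPM or less in the other 3 CD11c+ groups.

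Per kilobase of exon, Psap, the precursor of the saposins that present sphingolipids to their hydrolases, was the most abundant member at 4159 CPM per kb in WT HFD CD11c+ macrophages. The next members by their highest group mean, on the same scale, were at 3514 for the aspartic protease Ctsd (WT HFD CD11c+), 2856 for the cysteine protease Ctss (KO HFD CD11c+), 2365 for Ctsb (WT HFD CD11c+), 1419.9 for the macrophage glycoprotein Cd68 (WT HFD CD11c+) and 1178 for the carboxypeptidase Ctsz (KO SD CD11c+). At the low end, the calcium channel Mcoln1 spanned 4.80 to 8.32 CPM per kb over the 8 group means. Atp6v0c, the proteolipid of the pump's membrane ring, was lower still at 0.311 to 0.480 CPM per kb. It had 11 to 62 reads a library, while the next lowest subunit, Atp6v1h, spanned 10.5 to 19.2 CPM per kb. Near-identical processed copies of this gene exist in the genome and the counting of shared reads is not given in the sources used here, so its value is uncertain; it passed no test below and is left out of the plots by gene.

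The members differed in how far they varied. The ratio of the highest to the lowest of the 8 group means in CPM was 8.42 for Ctsl, 7.33 for Cd63, 6.83 for Ctsd and 6.60 for Gm2a. It was 1.29 for the mannosidase Man2b1, 1.30 for Scarb2, which carries glucocerebrosidase to the lysosome, 1.33 for Atp6ap1 and 1.35 for Atp6v0b. Proteases of the cathepsin and legumain class held 6 of the 9 highest ratios, the others being those of Cd63, Gm2a and Atp6v0a1.

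**Figure D2:**
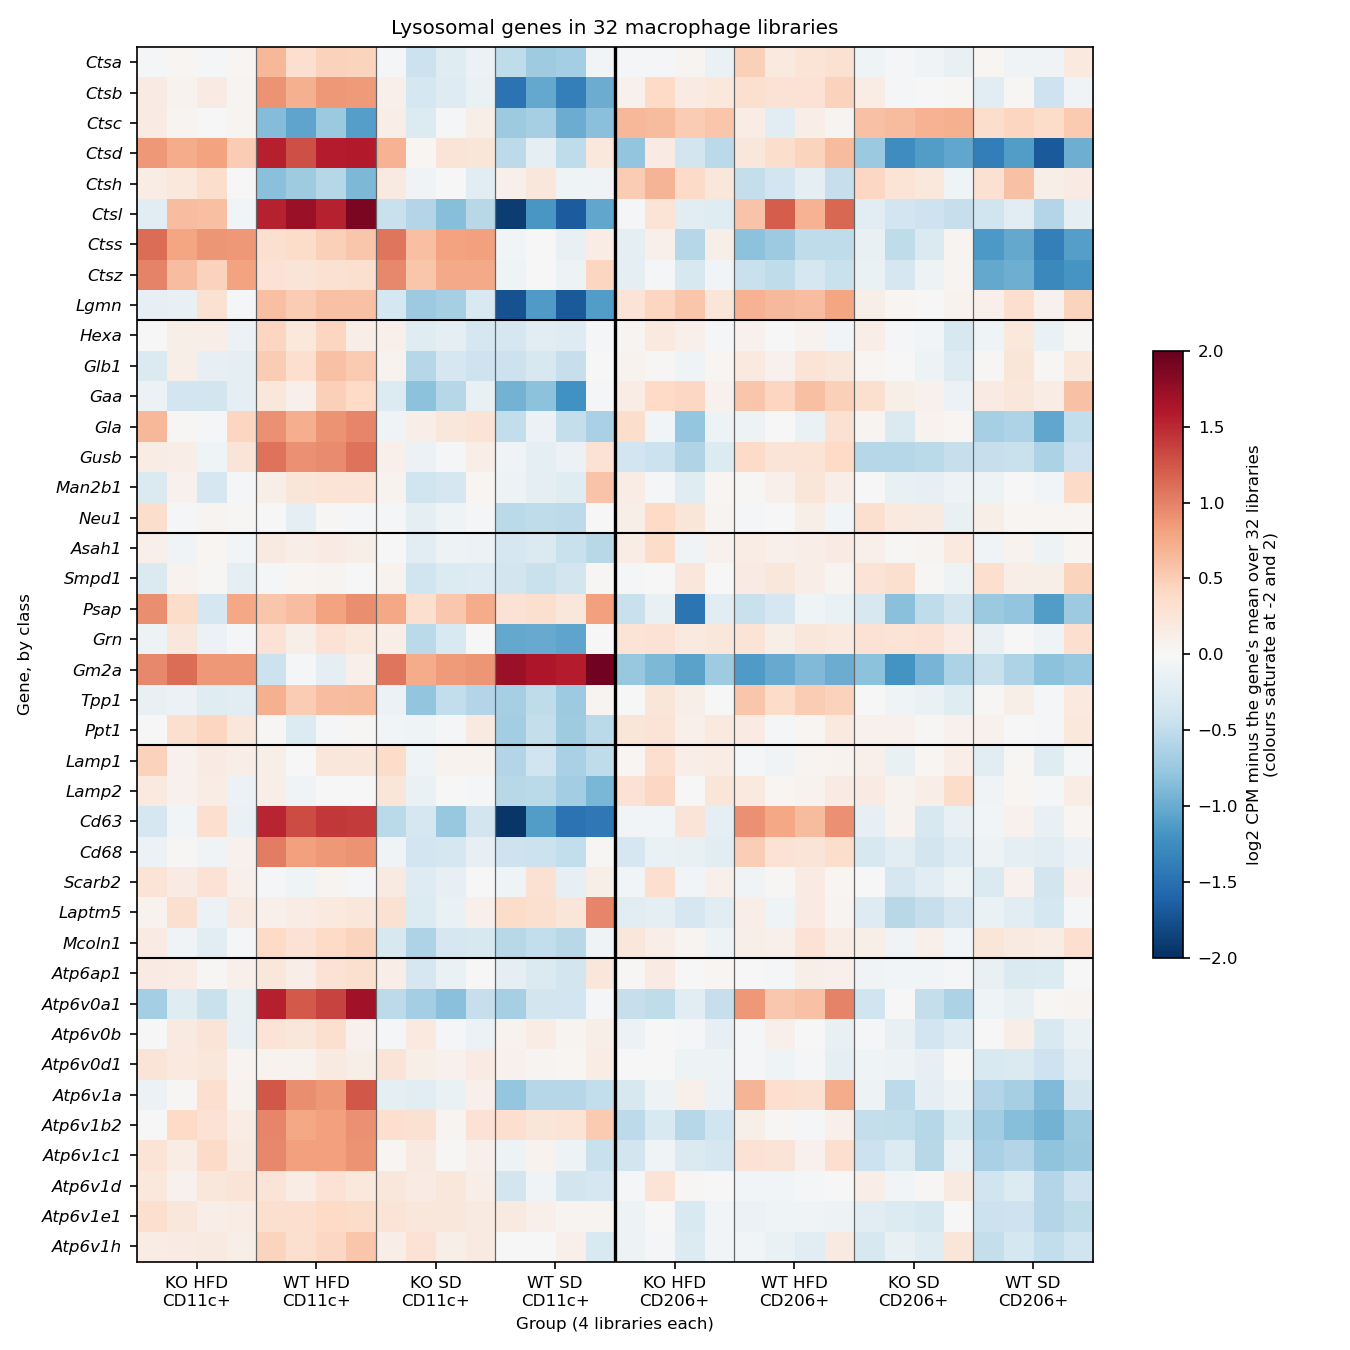
Level of 40 members (Atp6v0c left out) in 32 libraries as log2 CPM minus the gene's mean, on a colour scale that saturates at -2 and 2; rows are genes by class, columns are KO HFD, WT HFD, KO SD and WT SD in CD11c+ and then CD206+ macrophages. Most rows are highest in WT HFD CD11c+ libraries, while Gm2a, Ctsc, Ctsh and Laptm5 are among those that are not.

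All comparisons come from 1 fit over the 32 libraries, and a gene is called where its adjusted p is under 0.05 in edgeR's quasi-likelihood test with Benjamini-Hochberg adjustment over all 13453 genes. Comparisons share libraries: WT HFD CD11c+, for example, stands in the diet comparison of WT mice and in the genotype comparison on HFD. Their values are therefore given side by side and no overlap between them is tested.

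On HFD, WT CD11c+ macrophages had more RNA of most lysosomal genes than on SD, with the largest differences in the proteases Ctsl, Ctsb and Lgmn and the membrane protein Cd63, and less of Gm2a, the GM2 ganglioside activator, and of the aminopeptidase Ctsh. Of the 41 genes, 30 were higher and 3 lower on HFD, where 23.8% of all tested genes were higher and 22.6% lower. The median log2 fold change was 0.54 over the members and 0.01 over all tested genes. By class, 6 of 9 cathepsins and legumain, 6 of 7 glycosidases, 5 of 7 lipid hydrolases, activators and other lumenal proteins, 5 of 7 membrane proteins and 8 of 11 V-ATPase genes were higher. The class medians were 0.94, 0.78, 0.54, 0.69 and 0.49 on the log2 scale in the same order.

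Ctsl (chr13:64361890-64370772, GRCm38.p6, RefSeq, as for the genes below), a cysteine endopeptidase, was at 1112, 1260.5, 1115 and 1409 CPM in the 4 HFD libraries. In the 4 SD libraries it was at 103, 171, 121 and 187 CPM. The groups did not overlap, and the log2 fold change of 3.07 ± 0.20 (SE, adjusted p = 3.49e-13) was the largest among the members. Cd63 (chr10:128896231-128912822), a tetraspanin of late endosomes and lysosomes, was at 1182, 1019.8, 1101 and 1082 CPM on HFD and at 107, 190.1, 147 and 154 CPM on SD, again without overlap. Its log2 fold change was 2.87 ± 0.15 (SE, adjusted p = 7.63e-15). The cysteine protease Ctsb (chr14:63122462-63145923) was at 14968, 13129, 14601 and 14545 CPM on HFD and at 2903, 3953, 3129 and 4057 CPM on SD, a log2 fold change of 2.03 ± 0.11 (SE, adjusted p = 2e-14). Legumain (Lgmn, chr12:102394082-102439728), an asparaginyl endopeptidase that processes cathepsins, was at 1387, 1298, 1372 and 1373 CPM on HFD and at 273, 417, 285 and 420.3 CPM on SD. Every HFD library of both genes was above every SD library. For legumain the log2 fold change was 1.96 ± 0.13 (SE, adjusted p = 7.66e-13).

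Among the pump genes, Atp6v0a1 (chr11:101009422-101063719), an isoform of the large membrane subunit, rose by 1.81 ± 0.14 on the log2 scale (SE, adjusted p = 1.65e-11) and the catalytic subunit Atp6v1a by 1.68 ± 0.13 (adjusted p = 1.29e-11). Atp6v0a1 was at 735, 586, 639 and 799 CPM on HFD and at 158, 194, 191 and 246 CPM on SD. The other 6 pump genes that rose did so by 0.25 (Atp6v1e1) to 1.01 (Atp6v1c1), and Atp6v0b, Atp6v0c and Atp6v0d1 did not pass the test, with values of 0.13, -0.07 and 0.02. Ctsd, at 8568, 7131, 8582 and 8768 CPM on HFD and 2025, 2576, 2034 and 3347 CPM on SD, rose by 1.73 ± 0.19 (SE, adjusted p = 6.31e-09), also without overlap. Among glycosidases the alpha-galactosidase Gla rose most (1.30 ± 0.17, SE, adjusted p = 2.52e-07) and Man2b1 did not pass the test (0.18). The limiting membrane proteins Lamp1 and Lamp2, structural glycoproteins of the lysosome, rose by 0.68 ± 0.10 and 0.69 ± 0.10 (SE; adjusted p = 1.27e-06 and 9.43e-07), and Cd68 by 1.22 ± 0.09 (SE, adjusted p = 9.94e-12).

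Gm2a (chr11:55097985-55113029) went the other way, at 534, 709, 626 and 769 CPM on HFD and 2383, 2187, 2121 and 2739 CPM on SD. The groups did not overlap, and the log2 fold change was -1.84 ± 0.12 (SE, adjusted p = 5.06e-13). Ctsh (chr9:90054267-90076095) was at 462, 507, 554 and 444 CPM on HFD and 891, 971, 775 and 789.6 CPM on SD, and fell by 0.80 ± 0.12 on the log2 scale (SE, adjusted p = 2.29e-06). Laptm5, a transmembrane protein of blood cell lysosomes, was lower by -0.34 ± 0.13 (log2, SE, adjusted p = 0.0319). That call was lost without the fourth WT SD CD11c+ library, at 3722 CPM against 2240.4 to 2439.8 CPM in the other 3. Without that library the log2 fold change was -0.13 (adjusted p = 0.35). It was also lost without the first WT HFD CD11c+ library (adjusted p = 0.0523), with library totals alone (0.115) and with only these 2 groups in the fit (0.0938).

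**Figure D3:**
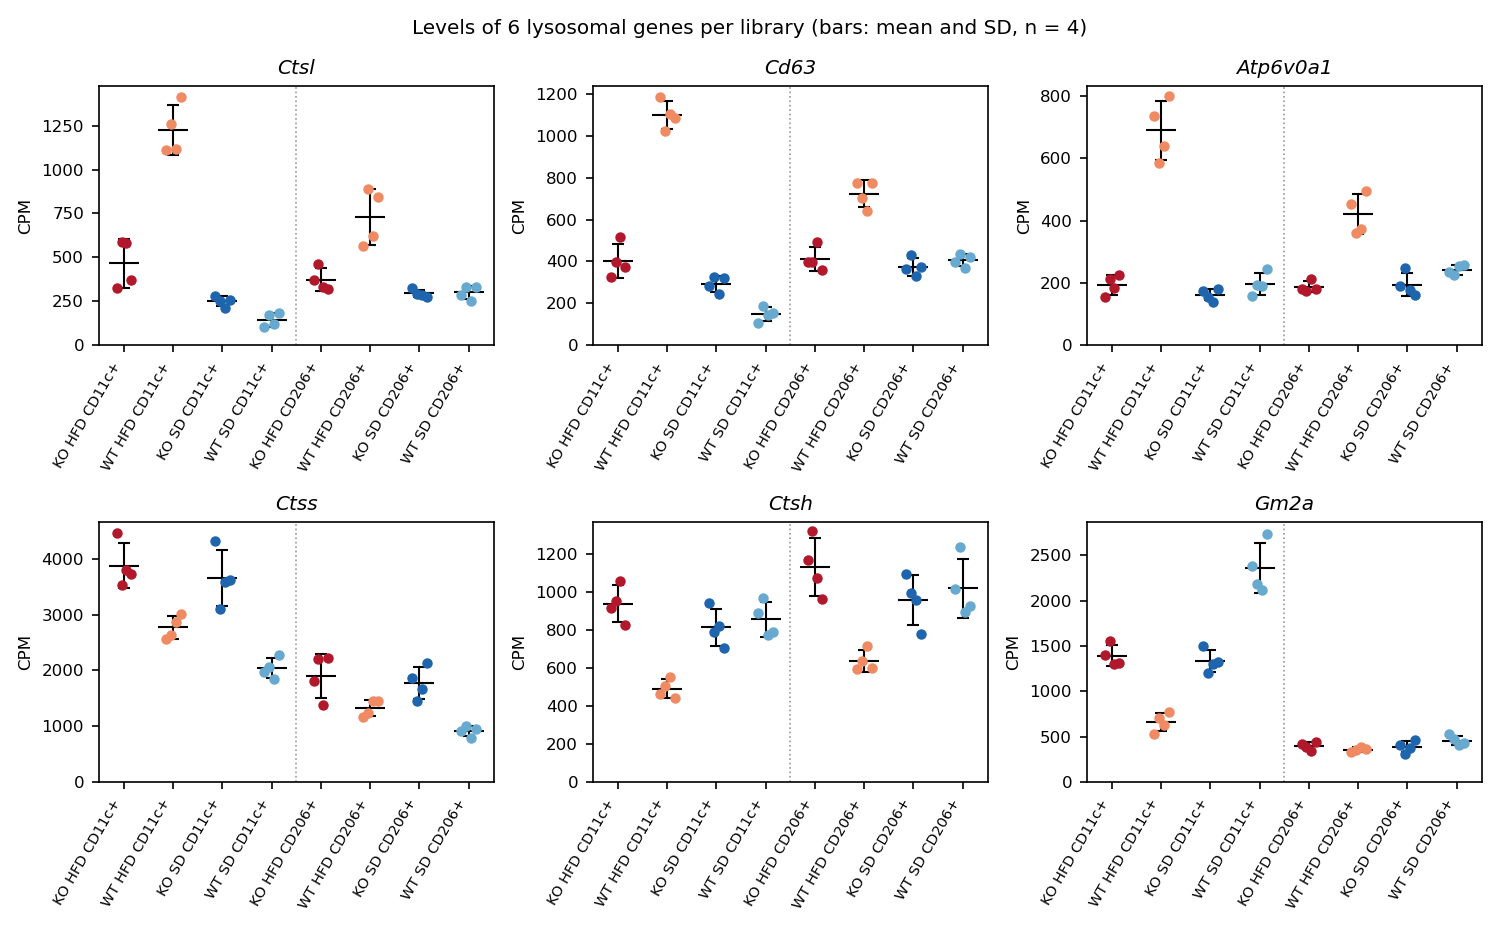
CPM of Ctsl, Cd63, Atp6v0a1, Ctss, Ctsh and Gm2a in each library, with KO HFD, WT HFD, KO SD and WT SD from left to right in CD11c+ and then CD206+ macrophages; points are libraries, bars mean and SD (n = 4). Ctsl, Cd63 and Atp6v0a1 peak in WT HFD, Ctss is lowest in WT SD in both populations, and Gm2a averaged 659 CPM in WT HFD and 2358 CPM in WT SD CD11c+ macrophages.

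CD206+ macrophages of WT mice also had more RNA of many members on HFD, with smaller differences. Of the 41 genes, 21 were higher and 3 lower, against 14.2% higher and 13.5% lower of all tested genes, and the median was 0.24 over the members and -0.02 over all genes. Of the V-ATPase genes 8 of 11 and of cathepsins and legumain 7 of 9 rose, while 2 of 7 glycosidases, 2 of 7 lumenal proteins and 2 of 7 membrane proteins rose. Ctsd (chr7:142375910-142387827) rose most, by 1.69 ± 0.19 on the log2 scale (SE, adjusted p = 6.78e-08), and was at 3410.3, 3689, 3966 and 4492 CPM on HFD and 1114, 1337, 904 and 1481 CPM on SD. Ctsl (1.27 ± 0.19, SE, adjusted p = 6.13e-06), Atp6v1a (1.14 ± 0.13, SE, adjusted p = 1.1e-07) and Atp6v1c1 (0.94 ± 0.10, SE, adjusted p = 2.8e-08) followed. Ctsl was at 565, 888, 621 and 845 CPM on HFD and 289, 331, 255 and 334 CPM on SD, and its HFD libraries did not overlap its SD libraries. Ctsh fell by 0.68 ± 0.12 (SE, adjusted p = 8.52e-05) and Ctsc, the dipeptidyl peptidase that activates granule proteases, by 0.38 ± 0.10 (SE, adjusted p = 0.00334). Gm2a was lower by -0.35 ± 0.12 (log2, SE, adjusted p = 0.0251), a call that was lost without WT HFD replicate 1 or 2 or WT SD replicate 1 or 2 (adjusted p 0.0582 to 0.117). Lamp1 and Lamp2 did not pass the test here (0.13 and 0.10).

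The difference between the populations was tested in WT mice by an interaction added after the values were seen. The log2 fold change with diet was higher in CD11c+ than in CD206+ macrophages for 19 of the 41 genes and lower for 4, against 16.4% and 16% of all genes. The members with the smallest adjusted p were Cd63 (2.04 ± 0.20, adjusted p = 1.39e-08), Ctsb (1.52 ± 0.15, adjusted p = 3.09e-08), Gm2a (-1.49 ± 0.17, adjusted p = 1.49e-07) and Lgmn (1.52 ± 0.18, adjusted p = 3.32e-07), all as the log2 difference of the diet effects with its SE. Ctsd, with 1.73 and 1.69 in CD11c+ and CD206+ macrophages, did not pass it (0.04).

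Markers of other cells differed along with diet in WT mice. All 8 stromal markers were higher on HFD in both populations, with sums of 1185 to 1647 CPM in WT HFD and 704 to 917 CPM in WT SD CD11c+ libraries, and 1121 to 2912 CPM in WT HFD and 769 to 1349 CPM in WT SD CD206+ libraries. Monocyte markers summed to 301 to 488 CPM in WT HFD and 1509.6 to 2125 CPM in WT SD CD11c+ libraries, and dendritic cell markers to 26.1 to 92.6 CPM and 263 to 533 CPM in the same groups; 2 of 5 and 2 of 7 were called lower on HFD. Ccr2 made up most of the monocyte sum, and Cd209a averaged 24.5 CPM in WT HFD and 294 CPM in WT SD CD11c+ libraries. T and NK cell markers (2 of 6 lower) summed to 9.27 to 16.9 CPM in WT HFD and 142 to 214 CPM in WT SD CD11c+ libraries, of which Cd2 averaged 9.41 and 176 CPM. Immediate early genes, which respond to tissue handling, were lower on HFD for 7 of 10 in CD11c+ and 9 of 10 in CD206+ macrophages and summed to 5449.9 to 6736 CPM in WT HFD and 10385 to 14378 CPM in WT SD CD11c+ libraries, and to 9688 to 12239.5 CPM and 21449.9 to 26417 CPM in CD206+ libraries. Macrophage markers (6 of 9 higher and 3 lower in CD11c+ macrophages) summed to 19875 to 22954 CPM in WT HFD and 31192 to 35194 CPM in WT SD CD11c+ libraries. Most of the WT SD sum was Lyz2, whose mean is given below, so the sum does not describe the macrophage markers as a set. In CD206+ libraries, dendritic cell markers (3 of 7 lower) summed to 24.9 to 34.99 CPM in WT HFD and 272 to 333 CPM in WT SD, and adipocyte markers (6 of 8 lower) to 174 to 433 CPM in WT HFD and 301 to 620.1 CPM in WT SD. Mast cell markers were higher on HFD for 4 of the 5 tested in both populations, with sums of 13.9 to 38.1 CPM in WT HFD and 1.41 to 5.26 CPM in WT SD CD11c+ libraries, and 19.98 to 109 CPM in WT HFD and 3.78 to 11.3 CPM in WT SD CD206+ libraries. The part of these markers in the differences with diet was not tested.

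On HFD, KO CD11c+ macrophages had less RNA than WT of most glycosidases, of 5 pump genes and of Cd63 and Ctsl, and more of Gm2a and of several cathepsins. Of the 41 genes, 20 were lower and 6 higher in KO, against 19.4% lower and 18.6% higher of all tested genes, and the median was -0.23 over the members and -0.02 over all genes. Lower in KO were 6 of 7 glycosidases, 5 of 11 V-ATPase genes, 3 of 7 membrane proteins and 1 of 7 lumenal proteins. The cathepsins and legumain split, with 5 of 9 lower and 4 higher.

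Atp6v0a1 was at 155, 212, 184 and 225 CPM in KO HFD and at 735, 586, 639 and 799 CPM in WT HFD CD11c+ libraries, with no overlap. It fell by 1.83 ± 0.14 on the log2 scale (SE, adjusted p = 4.27e-11), the largest decrease among the members, and stood near the SD level of either genotype (140.4 to 246 CPM over 8 libraries). Cd63 was at 327, 396, 518 and 375 CPM in KO, well under every WT library, and fell by 1.44 ± 0.14 (SE, adjusted p = 2.47e-09). Ctsl was at 326, 589, 582 and 369.9 CPM in KO and fell by 1.39 ± 0.19 (SE, adjusted p = 6.55e-07). Ctsb, at 9059, 8483, 9060.5 and 8393 CPM in KO, fell by 0.71 ± 0.11 (SE, adjusted p = 5.44e-06). None of these genes overlapped between the genotypes. Atp6v1a, at 222, 244, 302 and 251 CPM in KO and 569, 458, 438 and 567 CPM in WT, fell by 1.00 ± 0.13 (SE, adjusted p = 3.58e-07). Cd68 (-0.92 ± 0.09, adjusted p = 4.91e-09), the glucuronidase Gusb (-0.90 ± 0.09, adjusted p = 7.37e-09) and the tripeptidyl peptidase Tpp1 (-0.81 ± 0.13, adjusted p = 7.72e-06) were lower as well. Lamp1 (0.07), Lamp2 (0.06), Atp6v0d1 (0.08) and Atp6v1d (-0.02) did not pass the test.

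The members that rose in KO on HFD were Gm2a, Ctsc, Ctsh, Ctss, Ctsz and Ppt1. Gm2a was at 1400.3, 1549, 1302 and 1312 CPM in KO and at 534, 709, 626 and 769 CPM in WT libraries, a log2 fold change of 1.08 ± 0.12 (SE, adjusted p = 2.23e-08). Ctsc (chr7:88278024-88315861) was at 2436, 2275, 2166 and 2253 CPM in KO and 1202, 1054, 1299.9 and 1017 CPM in WT libraries, a log2 fold change of 1.00 ± 0.10 (SE, adjusted p = 1.91e-09). Ctsh was at 916, 953, 1061 and 826 CPM in KO and at 462, 507, 554 and 444 CPM in WT libraries, so that every KO library was above every WT library (0.93 ± 0.12, SE, adjusted p = 3.69e-07). Ctss (chr3:95526786-95556405), which trims the invariant chain of MHC class II, was at 4467, 3532, 3792 and 3724 CPM in KO and at 2563, 2640.4, 2867 and 3005 CPM in WT (0.49 ± 0.13, SE, adjusted p = 0.00394). Psap did not pass the test (-0.22): its KO libraries, at 13103, 8824, 5464 and 11799 CPM, spread around the WT libraries, at 10048, 10518, 11984 and 13095 CPM, with the third KO library lowest. Ctsz (0.44) and the palmitoyl thioesterase Ppt1 (0.32) rose less.

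In CD206+ macrophages on HFD, 11 members were lower and 3 higher in KO, against 11.3% lower and 10.5% higher of all tested genes, with a median of -0.08 over the members. Atp6v0a1 was at 182, 176, 214 and 182 CPM in KO and 454, 361, 374 and 496 CPM in WT libraries and fell by 1.16 ± 0.14 (log2, SE, adjusted p = 2.4e-07). Ctsl fell by 0.97 ± 0.19 (SE, adjusted p = 0.000214), Cd63 by 0.81 ± 0.14 (SE, adjusted p = 4.75e-05) and Ctsd by 0.76 ± 0.18 (SE, adjusted p = 0.00232). Cd63 was at 396, 398, 494 and 361 CPM in KO and 776, 704, 639 and 776 CPM in WT libraries, without overlap. Other pump genes lower in KO were Atp6v1a (-0.63), Atp6v1c1 (-0.51) and Atp6v1b2 (-0.50). The 3 that rose were again cathepsins: Ctsh, at 1172, 1324, 1075 and 964 CPM in KO and 596, 635, 718 and 598 CPM in WT, by 0.83 ± 0.12 (SE, adjusted p = 4.41e-06), Ctsc by 0.56 ± 0.10 (SE, adjusted p = 4.91e-05) and Ctss by 0.52 ± 0.13 (SE, adjusted p = 0.00396). Gm2a did not pass the test in CD206+ cells (0.15).

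The genotype effect on HFD differed between CD11c+ and CD206+ macrophages for 3 members, 1 higher and 2 lower, where 2.16% and 2.2% of all genes did so. These were Gm2a (0.92 ± 0.17, adjusted p = 0.00163), Ctsb (-0.59 ± 0.15, adjusted p = 0.0258) and Atp6v0a1 (-0.67 ± 0.20, adjusted p = 0.0478), as log2 differences with SE. With same-numbered CD11c+ and CD206+ libraries of a genotype and diet taken as pairs, 10 members passed, 2 higher and 8 lower. In KO HFD the replicate numbers pair the libraries only in part, as described below. With totals of counts as the only scaling 2 were higher and 2 lower. Ctsb lost its call in 8 and Atp6v0a1 in 13 of 16 fits that left out 1 library, with adjusted p up to 0.0698 and 0.141. Only 1 member passed without KO HFD CD11c+ replicate 2, KO HFD CD206+ replicate 2 or 3, WT HFD CD11c+ replicate 1, or WT HFD CD206+ replicate 1 or 3, and 1 passed without the filter on low counts.

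Markers of other cells also differed by genotype on HFD. The 8 stromal markers were all lower in KO in both populations, with sums of 606 to 777 CPM in KO and 1185 to 1647 CPM in WT CD11c+ libraries, and 607 to 789 CPM in KO and 1121 to 2912 CPM in WT CD206+ libraries. In CD11c+ libraries, monocyte markers (5 of 5 higher in KO), most of them Ccr2, summed to 1247 to 1452 CPM in KO and 301 to 488 CPM in WT. Dendritic cell markers (6 of 7 higher) summed to 67.7 to 219 CPM in KO and 26.1 to 92.6 CPM in WT, and T and NK cell markers (5 of 6 higher) to 44.4 to 97.9 CPM in KO and 9.27 to 16.9 CPM in WT. In CD206+ libraries, T and NK cell markers (5 of 6 higher) summed to 21.3 to 93.9 CPM in KO and 5.80 to 11.2 CPM in WT, monocyte markers (3 of 5 higher) to 525 to 1049 CPM in KO and 347 to 576 CPM in WT, and neutrophil markers (3 of 3 tested higher) to 79.6 to 97.1 CPM in KO and 25.7 to 50.6 CPM in WT. Adipocyte markers were called higher for 6 of 8 in KO CD206+ libraries, while their sums, at 228 to 239 CPM in KO and 174 to 433 CPM in WT, overlapped. In CD11c+ libraries 3 of the 8 were higher and 2 lower in KO. Their sums there were 59.7 to 150.1 CPM in KO and 198 to 336 CPM in WT. Neutrophil markers in CD11c+ libraries (2 of 3 tested higher) summed to 52.7 to 108 CPM in KO and 23.6 to 30.5 CPM in WT. Immediate early genes in CD11c+ libraries (4 of 10 higher and 1 lower) had sums that overlapped. Itgax was at 1.62 to 4.22 CPM in KO HFD and 20.7 to 50.3 CPM in WT HFD CD206+ libraries. Among the T and NK cell markers, Cd3d, Cd3e, Cd3g and Klrb1c averaged under 1 CPM in WT HFD CD11c+ libraries. The part of these markers in the lysosomal differences was not tested.

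On SD, more members were higher than lower in KO CD11c+ macrophages, where on HFD more were lower. Several proteases, Cd63 and Lamp proteins had more RNA in KO on SD. Not every member changed direction, as Ctss was higher in KO on both diets. Of the 41 genes, 17 were higher and 2 lower in KO, against 13.2% higher and 13.6% lower of all genes, with medians of 0.22 over the members and -0.02 over all genes. Cathepsins and legumain made up 7 of the 17, membrane proteins 3, lumenal proteins 3, glycosidases 2 and V-ATPase genes 2. Ctsb was at 8638, 6293, 6735 and 7339 CPM in KO, above the 4 WT libraries given above, a log2 fold change of 1.05 ± 0.11 (SE, adjusted p = 1.53e-08). Cd63, at 282, 325, 243 and 320.1 CPM in KO, rose by 0.97 ± 0.14 (SE, adjusted p = 3.49e-06) over the 4 WT libraries given above, and Lgmn, at 716, 553, 572 and 737 CPM in KO, by 0.89 ± 0.13 (SE, adjusted p = 4.23e-06). Ctss was at 4316, 3099.9, 3578 and 3619 CPM in KO and 1968, 2067, 1853 and 2274 CPM in WT and rose by 0.84 ± 0.13 (SE, adjusted p = 1.37e-05). Lamp1 was at 2113, 1548, 1720.4 and 1718 CPM in KO and 1098, 1240.3, 1048 and 1153 CPM in WT libraries, without overlap. Lamp1 and Lamp2 rose by 0.65 ± 0.10 and 0.68 ± 0.10 (SE; adjusted p = 8.38e-06 and 3.42e-06).

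The 2 members lower in KO CD11c+ macrophages on SD were Gm2a and Laptm5. Gm2a was at 1503, 1205, 1297 and 1327 CPM in KO, below every WT library, and fell by 0.82 ± 0.12 (log2, SE, adjusted p = 3.42e-06). Laptm5 was lower by -0.49 ± 0.13 (SE, adjusted p = 0.00511), and without the fourth WT SD CD11c+ library the value was -0.29 (adjusted p = 0.0543); with only these 2 groups in the fit the adjusted p was 0.0761. Ctsh (-0.07) and Atp6v0a1 (-0.27), which differed on HFD, did not pass the test on SD. Of 9 macrophage markers 6 were higher and 1 lower in KO CD11c+ macrophages on SD, while their sum was lower, at 18370.2 to 21441 CPM in KO and 31192 to 35194 CPM in WT libraries. Most of that sum was Lyz2, with means of 12971 CPM over the KO and 27503 CPM over the WT libraries. Of 7 dendritic cell markers 2 were higher and 1 lower, with sums of 87.7 to 221 CPM in KO and 263 to 533 CPM in WT, of which Cd209a averaged 79.0 and 294 CPM. T and NK cell markers (2 of 6 higher and 1 lower) summed to 60.4 to 74.2 CPM in KO and 142 to 214 CPM in WT, of which Cd2 averaged 46.0 and 176 CPM. Endothelial markers (4 of 6 lower) summed to 22.1 to 35.1 CPM in KO and 41.3 to 96.2 CPM in WT, and immediate early genes (1 of 10 higher and 4 lower) to 7218 to 10367 CPM in KO and 10385 to 14378 CPM in WT. Monocyte markers were higher in KO for 3 of 5. Neutrophil markers (1 of 3 tested higher) summed to 59.7 to 95.3 CPM in KO and 7.46 to 13.4 CPM in WT. In both groups 4 of the 5 neutrophil markers averaged under 1 CPM. Stromal markers summed to 605 to 756 CPM in KO and 704 to 917 CPM in WT CD11c+ libraries on SD, and none of the 8 was called. The part of these genes was not tested.

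In CD206+ macrophages on SD, 10 members were higher and 0 lower in KO, against 11.8% higher and 12.7% lower of all tested genes. At an unadjusted p under 0.05, 2 members were lower, and DESeq2 called 11 higher and 0 lower. Of the 10, 7 were V-ATPase genes, each by a small margin: Atp6v1d (0.49 ± 0.08, SE, adjusted p = 1.99e-05), Atp6v1a (0.40), Atp6v1c1 (0.35), Atp6v1b2 (0.34), Atp6v1h (0.33), Atp6v1e1 (0.29) and Atp6v0d1 (0.21). This split depended on the scaling: with totals of counts alone, 7 members were higher and 4 lower. The larger differences were those of Ctsz (0.99 ± 0.12, SE, adjusted p = 2.18e-07), Ctss (0.95 ± 0.13, SE, adjusted p = 3.03e-06) and Gla (0.66 ± 0.17, SE, adjusted p = 0.00525). Ctsz was at 907, 789, 928 and 1041 CPM in KO and 491, 508, 409 and 439.9 CPM in WT libraries, without overlap. Ctss, at 1859, 1447, 1675 and 2129 CPM in KO and 922, 1005, 792 and 957 CPM in WT libraries, did not overlap either. In CD206+ macrophages the dendritic cell markers (1 of 7 higher and 3 lower) summed to 23.7 to 47.8 CPM in KO SD and 272 to 333 CPM in WT SD. Endothelial markers (5 of 6 lower) summed to 58.8 to 64.4 CPM in KO and 141 to 176 CPM in WT, adipocyte markers (1 of 8 higher and 4 lower) to 151 to 213 CPM in KO and 301 to 620.1 CPM in WT, and immediate early genes (4 of 10 lower) to 10396 to 22001 CPM in KO and 21449.9 to 26417 CPM in WT. T and NK cell markers (4 of 6 higher and 1 lower), macrophage markers (5 of 9 higher) and monocyte markers (3 of 5 higher) had sums that overlapped between the genotypes. Neutrophil markers (2 of 3 tested higher) summed to 83.9 to 110 CPM in KO and 34.3 to 51.7 CPM in WT. In both groups 4 of the 5 neutrophil markers averaged under 1 CPM. The part of these markers was not tested.

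On SD the log2 fold change with genotype was higher in CD11c+ than in CD206+ macrophages for 7 members and lower for 2, against 4.1% and 2.48% of all genes. With totals of counts alone the split was 9 and 1. The smallest adjusted p were those of Lgmn (1.08 ± 0.18, 0.000367), Cd63 (1.09 ± 0.20, 0.000774), Ctsb (0.85 ± 0.15, 0.000798) and Ppt1 (0.60 ± 0.12, 0.00262), given as the log2 difference with SE and adjusted p. Ctss and Ctsz, higher in KO in both populations, did not pass this test (-0.11 and -0.30).

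**Figure D4:**
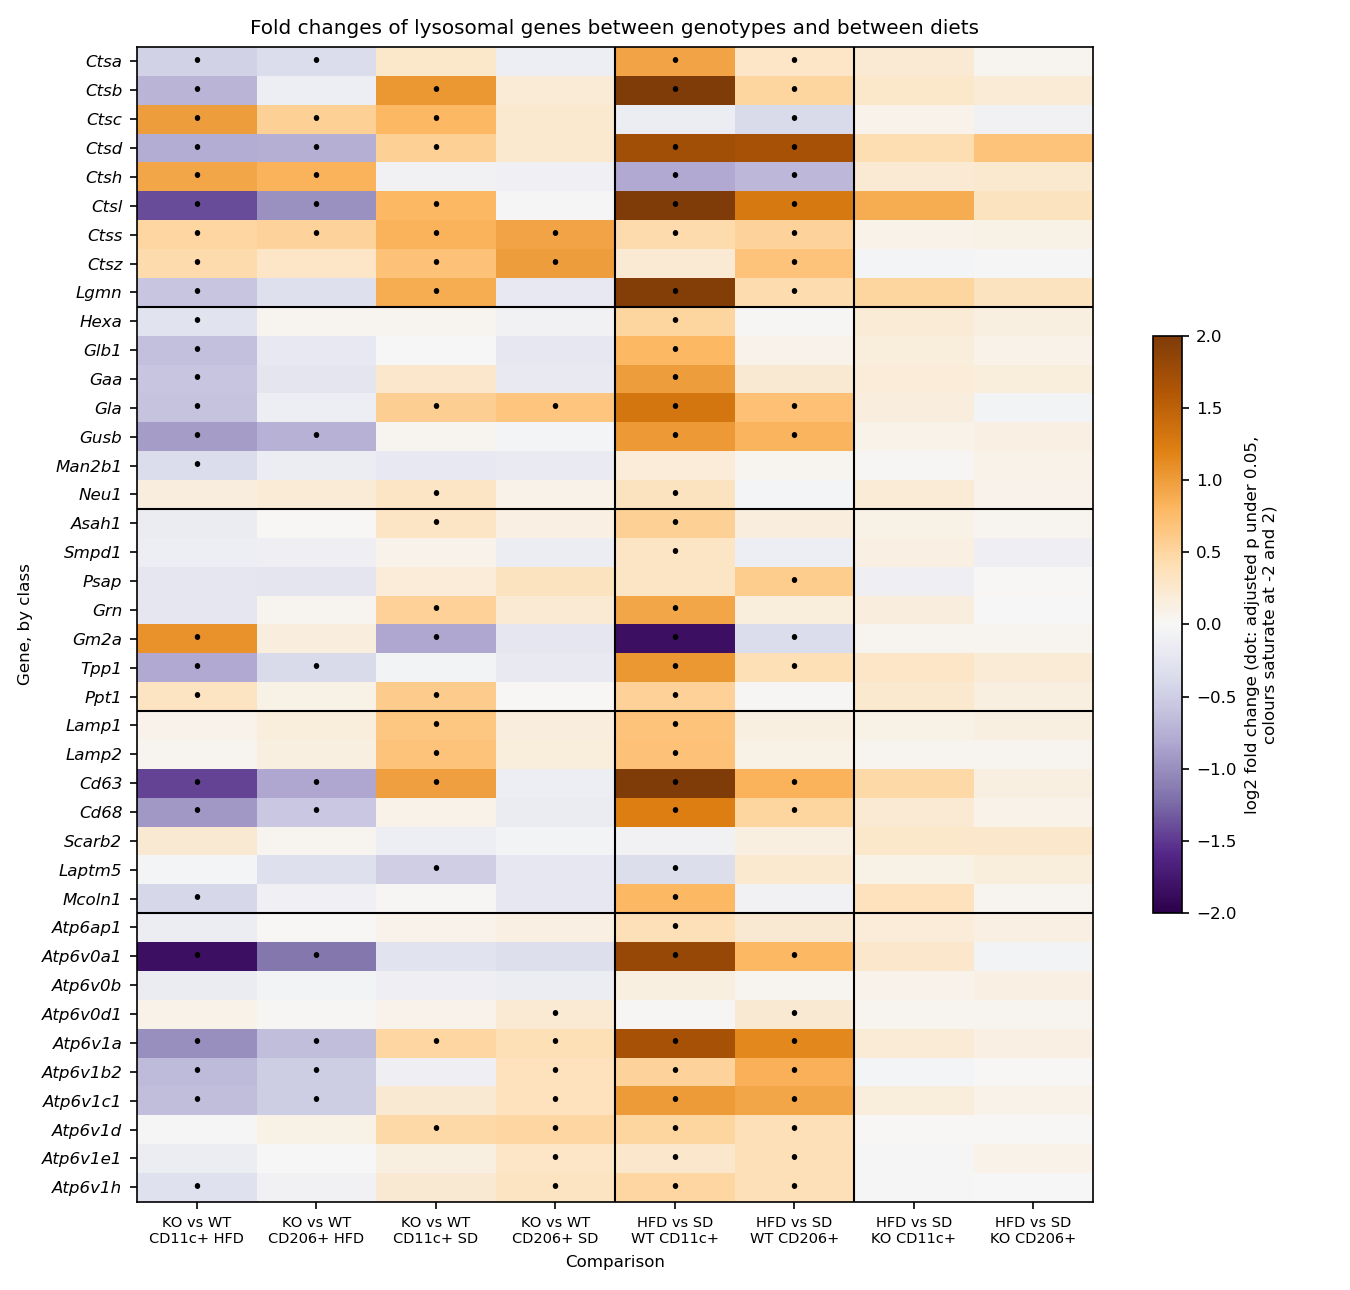
Log2 fold change of 40 members (Atp6v0c left out) in the 4 comparisons of KO with WT and the 4 of HFD with SD, on a colour scale; a dot marks an adjusted p under 0.05. Of 41 members, 20 were lower in KO CD11c+ macrophages on HFD and 17 higher on SD, and the 2 columns of diet in KO mice hold no dot.

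Within KO mice, no member differed between the diets past the threshold. In CD11c+ macrophages 0 members were called, where 0.00743% of all genes (1 gene) were, and in CD206+ macrophages 0 members and 0% of all genes were called. The median log2 fold change over the members was 0.15 in CD11c+ and 0.09 in CD206+ macrophages. At an unadjusted p under 0.05, 10 members were higher and none lower on HFD in CD11c+ macrophages, against 9.08% of all genes in either direction. In CD206+ macrophages 3 were higher and none lower, against 6.18%. DESeq2 called 2 members, both higher, in CD11c+ macrophages and 0 in CD206+ macrophages, and edgeR called 1 member in CD11c+ macrophages without KO HFD replicate 1 or 4. The log2 fold changes were positive for 36 of the 41 members in CD11c+ and for 34 in CD206+ macrophages.

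The member closest to a call in KO CD11c+ macrophages was Ctsl, at 326, 589, 582 and 369.9 CPM on HFD and 282, 255, 213 and 259 CPM on SD. Its HFD libraries were all above its SD libraries, with a log2 fold change of 0.89 ± 0.19 (SE, adjusted p = 0.0840). Lgmn (0.50 ± 0.13, SE, adjusted p = 0.148) and Cd63 (0.47 ± 0.14, SE, adjusted p = 0.236) followed. In CD206+ macrophages the lowest adjusted p was that of Ctsd, with 0.68 ± 0.18 (SE, adjusted p = 0.349).

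The difference between the diet effects of KO and WT mice was tested directly as an interaction of genotype and diet. In CD11c+ macrophages the log2 fold change with diet was lower in KO than in WT for 24 of the 41 members and higher for 2, against 15% and 13.9% of all tested genes, with a median of -0.49 over the members and -0.01 over all genes. It was lower for 7 of 11 V-ATPase genes, 5 of 9 cathepsins and legumain, 5 of 7 membrane proteins, 4 of 7 glycosidases and 3 of 7 lumenal proteins. The smallest adjusted p were those of Cd63 (-2.41 ± 0.20, adjusted p = 8.23e-10), Ctsb (-1.76 ± 0.15, adjusted p = 1.72e-09), Gm2a (1.90 ± 0.17, adjusted p = 1.72e-09) and Ctsl (-2.19 ± 0.26, adjusted p = 2.58e-07), as log2 differences with SE. The 2 members with a positive interaction were Gm2a and Ctsh (1.00 ± 0.17, adjusted p = 3.6e-05), both of which fell with HFD in WT.

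In CD206+ macrophages the interaction was negative for 13 members and positive for 1, against 6.63% and 5.23% of all genes. It was negative for 6 of 11 V-ATPase genes, among them Atp6v1b2 (-0.85 ± 0.13, adjusted p = 4.14e-05), Atp6v1c1 (-0.86 ± 0.14, adjusted p = 8e-05) and Atp6v1a (-1.03 ± 0.18, adjusted p = 0.000284), as log2 differences with SE. Ctsh was the 1 positive member (0.92 ± 0.17, SE, adjusted p = 0.00045). Both genotype comparisons of a population and its diet comparison in WT enter these interactions, so none of them is independent of the values above.

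Several members were called different between the populations in the same direction in all 4 combinations of genotype and diet. The share of all tested genes that did so was not computed. Gm2a was higher in CD11c+ than in CD206+ macrophages by 1.81 ± 0.12 in KO HFD, 0.88 ± 0.12 in WT HFD, 1.78 ± 0.12 in KO SD and 2.37 ± 0.12 in WT SD mice on the log2 scale (SE), with adjusted p from 3.38e-15 to 3.15e-06. Ctsd was higher by 1.05 to 1.35, Ctss by 1.03 to 1.15, Psap by 0.97 to 1.27 and Ctsz by 0.72 to 1.19, all called in each of the 4. The pump genes Atp6v1b2 (0.66 to 1.15), Atp6v1c1, Atp6v1e1, Atp6v1h and Atp6v0d1 and the glucuronidase Gusb were likewise higher in CD11c+ macrophages in each. Ctsc was lower in CD11c+ macrophages in each, by -0.53 in KO HFD, -0.97 in WT HFD, -0.67 in KO SD and -1.22 in WT SD mice.

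The counts of members higher and lower in CD11c+ macrophages were 12 and 3 in KO HFD (23.3% and 22.5% of all genes), 20 and 2 in WT HFD (11.7% and 8.7%), 12 and 9 in KO SD (25.6% and 26.1%) and 12 and 17 in WT SD mice (30.2% and 33.5%). In WT SD mice the lower members included Lgmn (-1.63 ± 0.13, SE, adjusted p = 1.35e-11), Cd63 (-1.44 ± 0.14, SE, adjusted p = 6.26e-10), Ctsc and Ctsl (-1.05 ± 0.19, SE, adjusted p = 1.62e-05). Cd63 (0.60) and Ctsl (0.75) were higher in CD11c+ macrophages in WT HFD mice, and Lgmn did not pass the test there (-0.11, adjusted p = 0.572). In KO HFD mice Lgmn (-0.38, adjusted p = 0.0169), Gaa (-0.53) and Ctsc were lower; the call of Lgmn was lost without KO HFD CD11c+ replicate 1 or 2 or KO HFD CD206+ replicate 3 (adjusted p 0.0636 to 0.0834). In WT HFD mice Ctsh (-0.37, adjusted p = 0.0265) and Ctsc were lower, and the call of Ctsh was lost without CD11c+ replicate 1 or 4 or CD206+ replicate 3 (adjusted p 0.0703 to 0.0944). In KO SD mice Lgmn (-0.55), Gaa (-0.54), Mcoln1 (-0.41) and Ctsc were among the 9 lower. With totals of counts alone, the split was 11 and 7 in KO HFD and 11 and 15 in KO SD mice.

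Markers of other cells differed between the populations as well. Adipocyte markers were lower in CD11c+ than in CD206+ macrophages for 8 of 8 in KO HFD, KO SD and WT SD mice and for 0 of 8 in WT HFD mice. Their sums were 59.7 to 150.1 CPM in CD11c+ and 228 to 239 CPM in CD206+ libraries of KO HFD mice, and 198 to 336 CPM in CD11c+ and 174 to 433 CPM in CD206+ libraries of WT HFD mice. On SD they were 45.3 to 63.5 CPM in CD11c+ and 151 to 213 CPM in CD206+ libraries of KO mice, and 80.1 to 267 CPM in CD11c+ and 301 to 620.1 CPM in CD206+ libraries of WT mice. In the order KO HFD, WT HFD, KO SD and WT SD, stromal markers were lower in CD11c+ macrophages for 5, 4, 7 and 7 of 8, endothelial markers for 4, 2, 5 and 6 of 6, immediate early genes for 7, 8, 8 and 7 of 10, and macrophage markers for 6, 2, 6 and 6 of 9. Dendritic cell markers were higher in CD11c+ macrophages for 5, 4, 5 and 4 of 7 in the same order, and lower for 1 in each. Macrophage markers were also higher in CD11c+ macrophages for 1 of 9 in KO SD and 3 of 9 in WT SD mice. In WT SD mice they summed to 31192 to 35194 CPM in CD11c+ and 18513 to 23127 CPM in CD206+ libraries. Most of that CD11c+ sum was Lyz2, as given above. The part of these markers in the differences between the populations was not tested.

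Beyond the 41 genes, 114 other lysosomal genes and regulators were listed and 107 of them tested. In HFD against SD WT CD11c+ macrophages 59 were higher and 14 lower (23.8% and 22.6% of all tested genes), with a median of 0.38, and in WT CD206+ macrophages 41 were higher and 5 lower (14.2% and 13.5%; median 0.19). In KO against WT CD11c+ macrophages on HFD 17 were higher and 39 lower (18.6% and 19.4%; median -0.12), and in CD206+ macrophages 12 were higher and 24 lower (10.5% and 11.3%; median -0.08). On SD 36 were higher and 14 lower in KO CD11c+ (13.2% and 13.6%; median 0.19) and 28 higher and 12 lower in KO CD206+ macrophages (11.8% and 12.7%; median 0.09). The counts of higher genes in KO CD11c+ macrophages on HFD, of higher genes in KO CD206+ macrophages on HFD and of lower genes in both populations on SD are near the shares over all genes. Diet in KO mice gave 0 calls in either population.

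**Figure D5:**
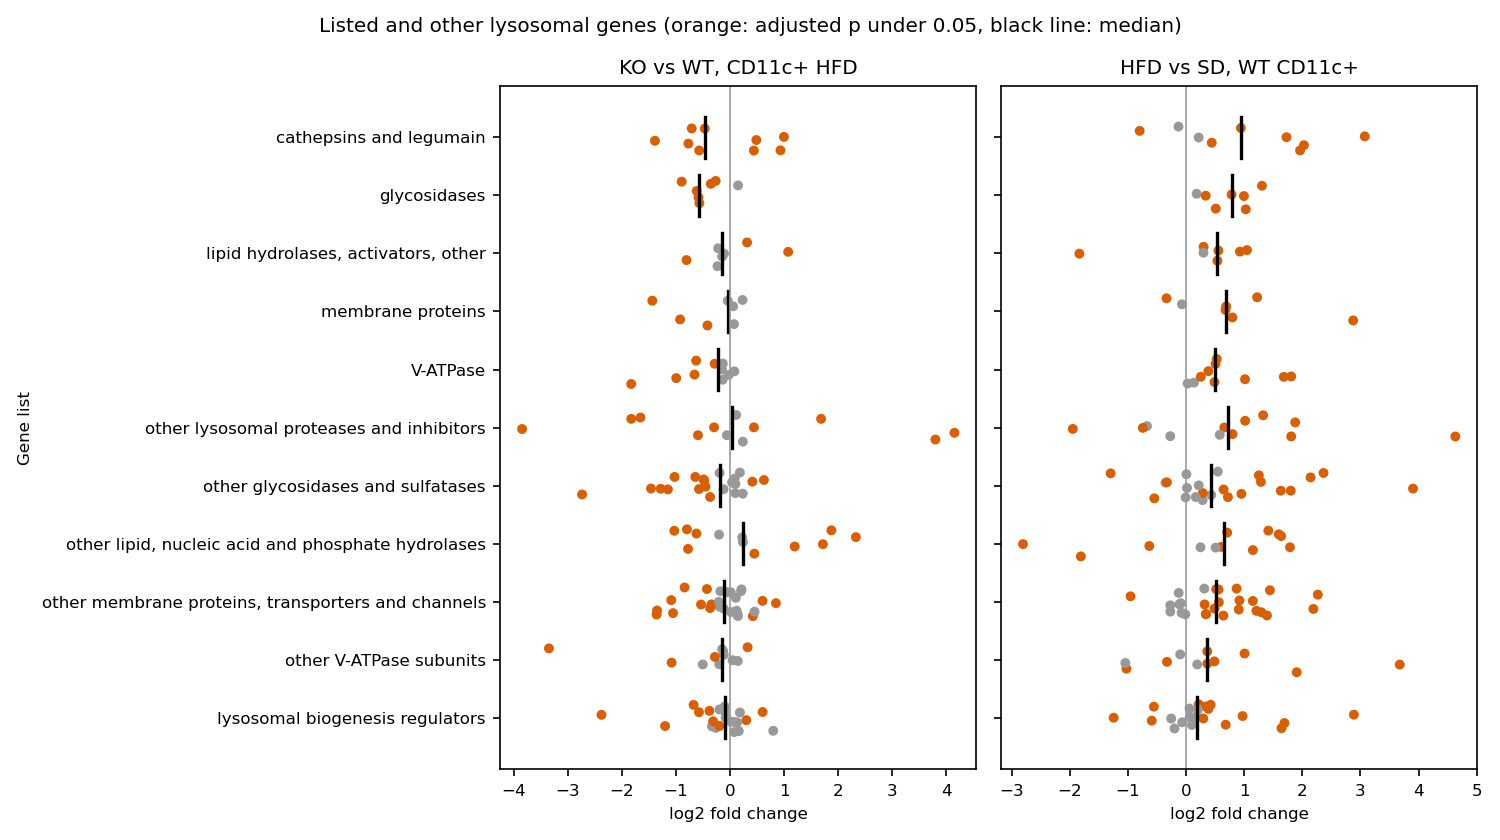
Log2 fold change of the members and of other lysosomal genes by list, in KO against WT CD11c+ macrophages on HFD (left) and HFD against SD WT CD11c+ macrophages (right); points are genes, orange where the adjusted p is under 0.05, and a black line marks the median of a list. Ctsk and Atp6v0d2 are the genes farthest below 0 on the left, at -3.85 and -3.35.

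The genes that fell most in KO on HFD were Ctsk, a collagen-degrading cathepsin, and Atp6v0d2, a pump subunit isoform known from osteoclasts and macrophages. Ctsk was at 8.56, 28.6, 52.6 and 17.5 CPM in KO HFD and at 414, 345, 350.2 and 439.7 CPM in WT HFD CD11c+ libraries, a log2 fold change of -3.85 ± 0.49 (SE, adjusted p = 2.95e-07). In WT CD11c+ macrophages it averaged 387 ± 47.1 CPM on HFD and 15.8 ± 9.75 CPM on SD (SD, n = 4 each; 4.63 ± 0.51, SE, adjusted p = 1.21e-08). Stromal markers, whose sums are given above, moved the same way, and their part was not tested. Atp6v0d2 averaged 79.7 ± 45.2 CPM in KO HFD and 814 ± 45.3 CPM in WT HFD CD11c+ macrophages (SD, n = 4 each; -3.35 ± 0.35, SE, adjusted p = 7.2e-09). In CD206+ macrophages it averaged 14.5 ± 5.99 CPM in KO HFD and 249 ± 47.8 CPM in WT HFD (SD, n = 4 each; -4.10 ± 0.37, SE, adjusted p = 1.11e-09), and Ctsk fell by 4.97 ± 0.55 (SE, adjusted p = 5.21e-08).

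Among the genes that rose with KO on HFD, the cystatin Cst7 averaged 3.38 ± 1.09 CPM in KO CD11c+ macrophages, against 0.235 ± 0.13 CPM in WT (SD, n = 4 each; 3.80 ± 0.56, SE, adjusted p = 2.65e-06). The lymphocyte cathepsin Ctsw averaged 2.56 ± 1.27 CPM in KO, against 0.138 ± 0.0823 CPM in WT (SD, n = 4 each; 4.16 ± 0.72, SE, adjusted p = 2.81e-05). Both are known from cytotoxic lymphocytes, and the T and NK cell markers given above were higher in the same KO libraries; their part was not tested. Both were higher in KO in the other 3 genotype comparisons too, with log2 fold changes of 2.39 to 4.26 for Cst7 and 2.43 to 2.83 for Ctsw, from levels of few CPM. On SD, the called decreases in KO included those of the pump isoform Atp6v0a2 (-0.57 ± 0.11, SE, adjusted p = 0.000197) in CD11c+ macrophages, and of the GTPase Rragb (-1.77 ± 0.48, SE, adjusted p = 0.00685) and the sulfatase Arsb (-1.18 ± 0.17, SE, adjusted p = 5.06e-06) in CD206+ macrophages.

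With HFD in WT CD11c+ macrophages the hyaluronidase Hyal1 rose by 3.90 ± 0.30 (SE, adjusted p = 1.06e-11), while the phospholipase B homologue Plbd1 fell by 2.81 ± 0.22 (SE, adjusted p = 1.09e-11) and the protease Ctse by 1.95 ± 0.45 (SE, adjusted p = 0.000698). Plbd1 averaged 117 ± 34 CPM on HFD and 819 ± 65.6 CPM on SD (SD, n = 4 each). In WT CD206+ macrophages Plbd1 fell by 2.02 ± 0.21 (SE, adjusted p = 3.37e-08) and Smpdl3b by 1.25 ± 0.21 (SE, adjusted p = 3.52e-05), while Ctsk rose by 4.87 ± 0.55 (SE, adjusted p = 9.56e-08) and Atp6v0d2 by 3.76 ± 0.36 (SE, adjusted p = 6.43e-09).

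Of 22 regulators of lysosome biogenesis, 10 were higher and 3 lower with HFD in WT CD11c+ macrophages and 8 higher and 0 lower in WT CD206+ macrophages. In KO against WT on HFD 2 were higher and 7 lower in CD11c+ and 1 higher and 6 lower in CD206+ macrophages. On SD 3 were higher and 4 lower in KO CD11c+ and 5 higher and 1 lower in KO CD206+ macrophages. The shares over all tested genes are those given above for the wider list: 23.8% and 22.6%, 14.2% and 13.5%, 18.6% and 19.4%, 10.5% and 11.3%, 13.2% and 13.6%, and 11.8% and 12.7%, in the order of these comparisons. The regulators pool Tfeb, Tfe3 and Mitf with genes of mTORC1 itself, such as Mtor and Rptor. Their counts therefore have no single direction for lysosome biogenesis. Tfeb averaged 84.1 ± 9.11 CPM in KO HFD and 109.6 ± 4.66 CPM in WT HFD CD11c+ macrophages (SD, n = 4 each; -0.38 ± 0.10, SE, adjusted p = 0.00357), and Mitf 54.7 ± 16.6 CPM and 81.5 ± 11.1 CPM in the same groups (-0.57 ± 0.15, SE, adjusted p = 0.00253). Tfe3 did not pass the test (-0.08, adjusted p = 0.507). Tfec, a family member expressed in macrophages, averaged 6.77 ± 1.46 CPM in KO SD and 0.604 ± 0.361 CPM in WT SD CD11c+ macrophages (SD, n = 4 each; 3.46 ± 0.25, SE, adjusted p = 1.11e-11).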

How the data were processed

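RNA-seq read counts per gene were available for 32 libraries in 8 groups of 4. The counts are whole numbers as the authors deposited them. The authors used, per the submitters' processing notes, TopHat2 2.1.0, SAMtools 0.1.18, Trimmomatic 0.35 and FastQC 0.11.4, with the build mm10 (GRCm38); the sources used here name no counting tool, annotation, library kit or strand setting. The 5 table entries that name no gene were left out; among them, reads in no feature came to 5.16 to 11.1% and ambiguous reads to 0.992 to 1.48% of a library.

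Genes were filtered with filterByExpr (minimum count 10) and tested with the quasi-likelihood test of edgeR 4.0.16 in R 4.3.3. TMM scaling (factors 0.856 to 1.08) was used, with 1 mean per group over all libraries and Benjamini-Hochberg adjustment over 13453 genes and a threshold of 0.05. CPM are edgeR's cpm values over TMM-scaled library sizes. Exon lengths for values per kilobase are unions of the exons of a gene in GENCODE vM21. SE is the log2 fold change over the square root of F. An interaction is the difference of 2 log2 fold changes; that of diet and population in WT was added after the values were seen. The fit was also run on simulated libraries drawn independently, without the pairing between populations seen in these data. Its outcome is not reported here, and no statement above rests on it. The members and lists were chosen with earlier results of these data known.

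Members with values were the 4 largest called changes in each direction, and 2 in each direction for other lysosomal genes, of which one is not reported here; interactions name the 4 smallest adjusted p. Other genes and members not called are named to complete a class or family and were chosen after their values were seen. Alternatives were DESeq2 1.42.0, RLE factors, library totals alone, no filter and a minimum count of 50. Others were only the groups compared, a replicate block and leaving out each library. Where populations were compared, the block was the pair of same-numbered CD11c+ and CD206+ libraries of a genotype and diet. Elsewhere it was the replicate number. Replicates differed by more than sampling noise (chi-square per degree of freedom 10.4 to 63.8).

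The replicate numbers pair CD11c+ and CD206+ libraries in WT HFD (correlations of deviations from group means 0.228 to 0.468), KO SD (0.143 to 0.323) and WT SD (0.143 to 0.285), from the data and not from a label. They do so only in part in KO HFD (-0.0488 to 0.333). There replicates 3 and 4 correlated best with their own number (0.333 and 0.202), and replicates 1 and 2 did not (-0.0348 and -0.0488). No library batch is labelled.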

Additional observations from a re-analysis of the deposited data

Results flagged for a closer look

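In 11 of the 176 groups of 4 values examined, 1 library lay far from the other 3 by Dixon's criterion, which chance gives in about 1 of 20 groups. The fourth WT SD CD11c+ library was the high one for summed glycosidases (3182 CPM), summed lipid hydrolases, activators and other lumenal proteins (18097.7 CPM), Ctsz (1349 CPM), Laptm5 (3722 CPM) and Psap (12118 CPM). The second WT HFD CD11c+ library was the low one for summed cathepsins and legumain (29345.9 CPM), summed membrane proteins (7599 CPM), Ctsd (7131 CPM) and Lgmn (1298 CPM). Gaa was high in the fourth WT SD CD206+ library (166 CPM), and Psap was low in the third (3167 CPM).

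The 19 interaction effects listed here were named because they were past the threshold, so their passing it is no separate result. The change in the diet effect with genotype in CD11c+ macrophages, as a log2 difference of KO minus WT, was -2.41 for Cd63, -1.76 for Ctsb, 1.90 for Gm2a and -2.19 for Ctsl. In CD206+ macrophages it was -0.85 for Atp6v1b2, -0.86 for Atp6v1c1, -1.03 for Atp6v1a and 0.92 for Ctsh. The genotype effect differed between CD11c+ and CD206+ macrophages on HFD by 0.92 for Gm2a, -0.59 for Ctsb and -0.67 for Atp6v0a1, and on SD by 1.08 for Lgmn, 1.09 for Cd63, 0.85 for Ctsb and 0.60 for Ppt1. On HFD, Ctsb lost its call in 8 and Atp6v0a1 in 13 of 16 fits that left out 1 library. In WT mice the diet effect differed between the populations by 2.04 for Cd63, 1.52 for Ctsb, -1.49 for Gm2a and 1.52 for Lgmn.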

How the results depend on the processing

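Of 609 values of named members under alternatives other than leaving out a library, 603 kept direction and call, 6 lost the call and 0 reversed; of 848 values with 1 library left out, 34 lost the call and 0 reversed. The count of called members for diet in KO CD11c+ macrophages was 0, against 2 with DESeq2 and 0 to 1 with 1 library left out. The count for the genotype effect between populations on HFD was 3, against 1 with no filter on low counts, 10 with the replicate block, 5 with DESeq2 and 1 to 4 with 1 library left out. The replicate block moved no other count of called members by over 1.5 times; same-numbered libraries of different genotypes (correlations -0.132 to 0.126) or diets (-0.209 to 0.262) share only a number. The summed level of all members in WT HFD CD206+ macrophages was 47889 CPM with library totals alone, against 45131 CPM. That scaling also moved the median log2 fold change of all genes to 0.12 for diet in WT CD11c+ macrophages and to -0.25 for CD11c+ against CD206+ in WT SD mice, from 0.01 and -0.06. The causes were not tested. Depth limits Atp6v0c alone among the members, at 11 to 62 reads a library.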
